A study of Mus musculus with 4 samples.

Results

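ATP-binding cassette (ABC) transporters are membrane proteins that use ATP to move lipids, drugs, peptides and conjugated metabolites across membranes. The family was described here across 4 RNA sequencing libraries of cultured mouse oesophageal cells, 2 of them Nrf2-HET, with 1 copy of Nfe2l2 carrying E79Q, and 2 wild type (Nrf2-WT). Members were all genes of the deposited table whose symbol begins with Abca to Abcg followed by a digit, which gave 50 of 24444 genes in subfamilies A to G. The rule used symbols only and no measured value. Per the labels, all libraries were poly(A) RNA of cultured cells from the C57BL/6J strain. The Nrf2-HET libraries carry the Nfe2l2-E79Q cassette, introduced by CRISPR/Cas9 microinjection, and the Nrf2-WT libraries carry none. The series title calls the mouse conditional, but the labels give neither a Cre driver nor the age of the animals. They do not say how many animals or cultures stand behind the libraries, so p-values measure the spread between these libraries only. Every column name carries the word SV40, which the labels do not explain, and the design text of the series describes a human line that matches no sample label.

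NRF2, the protein of Nfe2l2, is a transcription factor that is held back by KEAP1 and that induces genes of antioxidant defence, glutathione synthesis and detoxification. Cells remove many toxic compounds by coupling them to glutathione, glucuronic acid or sulfate and then pumping the conjugate out, and ABC proteins of subfamilies B, C and G carry out much of that last step. Other members have unrelated tasks. Subfamily A moves sterols and phospholipids, subfamily D serves peroxisomes and lysosomes, and subfamilies E and F have no membrane domain and act on ribosomes. In stratified epithelium the best known member is Abca12, which loads lipids into the lamellar granules of keratinocytes.

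The promoters of the members were read for the core of the antioxidant response element, the site at which NRF2 binds DNA. The motif TGACNNNGC was searched on both strands in the RefSeq windows of 250 bases before to 50 bases after each start (GRCm38.p6). Of the 50 members 38 had a window, and 5 of these (13.2%) held the motif. Of all 27025 genes with a window, 3781 (14%) held it. Of the 4 members called higher that had a window, 1 held it, Abcc4, at both of its starts. No window was used for Abcc1 and Abcc3, which were also called higher, so their promoters were not read. Of the 3 members called lower that had a window 0 held it. Among the 17 tested members with a window 2 held it, Abcc4 and Abcc10. The matched stretches are shown 5′ to 3′ on the strand that reads TGACNNNGC, with the motif in capitals.
Abcc4, upstream start, chr14:118706226-118706254, plus strand: cggcccgcccTGACCCCGCctctcggggc
Abcc4, downstream start, chr14:118676936-118676964, minus strand: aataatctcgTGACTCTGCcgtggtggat
Abcc10, upstream start, chr17:46328208-46328236, minus strand: cgcagcacccTGACCTGGCagcgcgtcct
Abcc10, downstream start, chr17:46325737-46325765, minus strand: gtgagctttcTGACATGGCtgctaggaac
Abca8b, chr11:109995816-109995844, plus strand: cacggacacgTGACCGCGCatggctgctc
Abcb1a, chr5:8567107-8567135, minus strand: ttgttctgtcTGACTCCGCggacaaagag
Abcc2, chr19:43782200-43782228, plus strand: ctcactgggaTGACATAGCattcatctag

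The full windows of Abcc4 and of Abca12 are shown because the first holds the motif and the other, of the member with the largest difference, does not hold these letters. Both are on the minus strand of GRCm38.p6, and capitals mark the motif, which reads on the opposite strand in Abcc4.
Abcc4, upstream start, chr14:118706170-118706469: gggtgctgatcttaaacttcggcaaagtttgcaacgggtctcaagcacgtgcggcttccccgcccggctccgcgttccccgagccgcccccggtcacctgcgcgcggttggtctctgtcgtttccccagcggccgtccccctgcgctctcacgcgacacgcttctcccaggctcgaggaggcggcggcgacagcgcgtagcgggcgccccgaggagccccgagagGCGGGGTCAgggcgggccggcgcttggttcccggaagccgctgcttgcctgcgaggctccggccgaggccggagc
Abca12, chr1:71414861-71415160: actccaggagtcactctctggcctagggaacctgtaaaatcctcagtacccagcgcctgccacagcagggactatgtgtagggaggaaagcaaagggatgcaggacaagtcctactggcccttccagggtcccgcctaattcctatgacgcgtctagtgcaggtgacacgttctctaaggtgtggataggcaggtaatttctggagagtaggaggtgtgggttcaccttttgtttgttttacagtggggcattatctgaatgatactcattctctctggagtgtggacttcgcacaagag

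The deposited values are variance-stabilised and log2-like, and genes without reads share a floor of 6.98. Depth, estimated from the value of single reads, came to 15.2 and 13.0 M reads in Nrf2-HET and 14.2 and 12.6 M in Nrf2-WT. In every gene both pairs have equal sums over the genotypes, so the table had been centred on the replicate number. The values of a pair therefore mirror each other around the mean of the gene, while the difference within each pair is untouched. Differences are Nrf2-HET minus Nrf2-WT, the mean of 2 pairs, ± the moderated SE of limma with the replicate number as a block. The fit took all 10857 genes that in 2 or more libraries exceeded the table's minimum by at least 1. The SE rests mostly on the spread of other genes (prior degrees of freedom 14.6, residual 1), not on the 2 pairs of the gene alone. A gene was called at a Benjamini-Hochberg adjusted p under 0.05. With 2 pairs the smallest two-sided p of an exact test is 0.5, so each call borrows its precision from the other genes. Ratios are of normalised counts, obtained by inverting the variance stabilisation.

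Markers of epithelium, among them Krt5, Krt14 and Trp63 of stratified epithelium, were present in all libraries. All 7 were tested, with Krt13 higher and Krt14 and Epcam lower in Nrf2-HET. Of 5 immune markers 4 lay at the floor in every library, among them Ptprc, the pan-leukocyte gene, and Cd68, which is also a lysosomal gene of other cells, was higher in Nrf2-HET. Of 6 fibroblast markers Lum lay at the floor, and the summed normalised count of the list was 106 and 111 in Nrf2-HET, against 404 and 415 in Nrf2-WT, a difference mostly of Col1a1. Dcn in the same list went the other way (7.40 and 7.40 in Nrf2-HET, 6.98 and 6.98 in Nrf2-WT, under the filter), and Pdgfra overlapped. The 4 muscle markers summed to 273 and 262 in Nrf2-HET and to 865 and 888 in Nrf2-WT, mostly from Acta2. The 4 endothelial and the 4 hepatocyte or intestinal markers summed to at most 23.1 and 11.7. The part of these lists in the results was not tested, and fewer cells of a type cannot be told apart from less RNA per cell. Nfe2l2 itself was not called (11.17 and 11.27 in Nrf2-HET, 11.38 and 11.27 in Nrf2-WT, limma adjusted p = 0.154), and its level says nothing of the substitution.

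Of the 50 members 41 lay above the floor in at least 1 library (82%, against 66.8% of all genes), and 24 passed the filter and were tested. The 9 members at the floor in all 4 libraries were Abca8a, Abca9, Abca13, Abca14, Abca15, Abca16, Abcb5, Abcc9, a subunit of potassium channels, and Abcg3. Another 17 lay above the floor but under the filter, and 14 of these had fewer than 10 normalised counts in every library. This group holds Abcb4, Abcb11, Abcc2, Abcg5 and Abcg8, known mainly for export from liver and intestine, and the drug pump gene Abcb1a. It also holds the channel subunit Abcc8, and Abca4, Abca6, Abca17, Abcc6, Abcc12, Abcd2 and Abcg4. The remaining 3 were Abca1, Abca8b and Abcb9. Neighbouring genes were detected unequally in some runs and alike in others, such as Abca14, Abca15 and Abca16, all at the floor. In the run Abca8b, Abca8a, Abca9, Abca6 and Abca5 on chromosome 11 only Abca5 was tested, and of Abcb1a, Abcb1b and Abcb4 on chromosome 5 only Abcb1b. Abcb1a and Abcb1b encode close copies of the drug pump P-glycoprotein, so their split is uncertain.

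**Figure D1:**
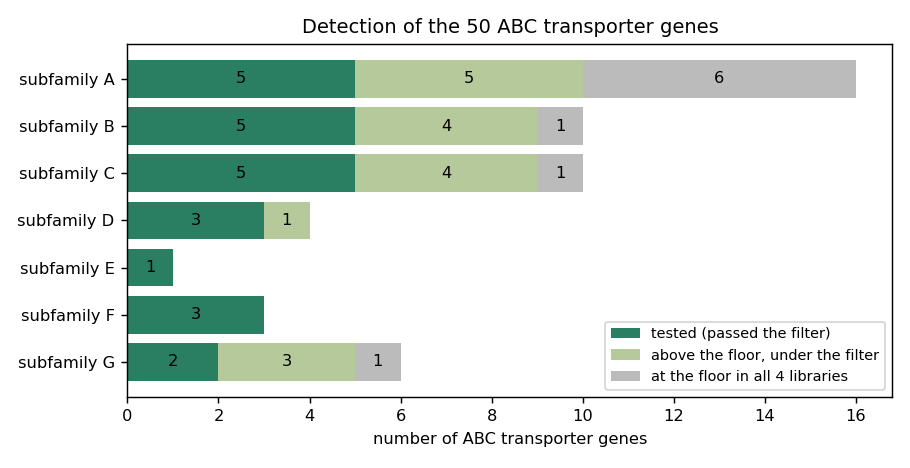
Number of ABC transporter genes per subfamily (x axis) that were tested, that lay above the floor but under the filter, or that lay at the floor in all 4 libraries. Subfamilies E and F were tested in full (1 and 3 genes), whereas 6 of the 16 members of subfamily A lay at the floor.

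Per kilobase of the principal transcript (GENCODE M21), the order of the members was led by the ribosome-associated genes and by Abcc1. Abce1 had 1217 normalised counts per kb in Nrf2-HET and 1069 in Nrf2-WT, and Abcf2 had 838 and 869. Abcc1, with 796 in Nrf2-HET and 501 in Nrf2-WT, stood at rank 3 in Nrf2-HET and at rank 4 in Nrf2-WT, and Abcf1, with 716 and 702, at rank 4 and at rank 3. Abca12 stood at rank 6 in Nrf2-HET, with 283 normalised counts per kb, and at rank 16 in Nrf2-WT, with 85.7. Abcc3 stood at rank 13 in Nrf2-HET (159) and at rank 19 in Nrf2-WT (49.8). These levels are approximate, because the labels do not name the annotation the authors counted on, and neighbours in the order such as Abca2, Abcb8 and Abcf3, between 184 and 224 in either genotype, were not tested against each other.

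Of the 24 tested members 11 were called, 6 higher and 5 lower in Nrf2-HET. That is 45.8%, against 40.4% of all tested genes, with 25% higher against 21.5% and 20.8% lower against 18.9%. The number of calls was therefore close to the background. The groups did not overlap in 21 members (87.5%, against 79.2% of all tested genes), and in values centred by pair this is the same as an equal direction in both pairs. The median difference over the tested members was 0.033 on the log2 scale, against 0.0062 over all tested genes. A called difference of at least 0.5 was reached by 4 members (16.7%), all higher, against 2.74% of all tested genes called higher by as much. These 4 were Abca12, Abcc3, Abcc1 and Abcc4, at ranks 16, 32, 173 and 198 of the 10857 differences. The log2-like scale compresses differences of genes with low counts, so the cut of 0.5 favours abundant genes. Abcg1, 1.59-fold lower in normalised counts, differed by -0.26, while Abcc1, 1.59-fold higher, differed by 0.63.

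**Figure D2:**
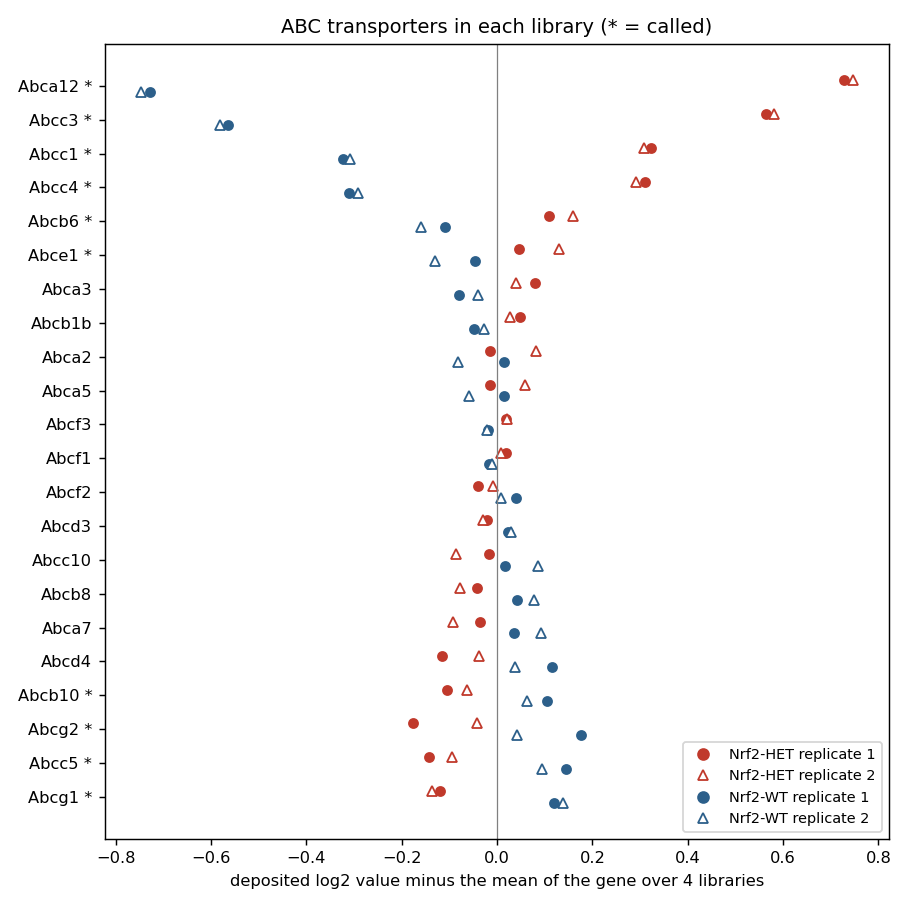
Deposited log2 value of 22 tested ABC transporters in each library, minus the mean of the gene over the 4 libraries, with Nrf2-HET in red and Nrf2-WT in blue; circles are replicate 1, triangles replicate 2, and an asterisk marks a called gene. Abca12, Abcc3, Abcc1 and Abcc4 separate the genotypes most widely, and points of 1 pair mirror each other because the table was centred by pair.

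Exporters of drugs and conjugates moved in both directions. Of 13 genes in this group 7 were tested, with 3 higher, all of subfamily C, and 2 lower. Over all tested genes 21.5% were higher and 18.9% lower. Abcc3, which exports glucuronides and other organic anions, lay at 10.01 and 10.02 in Nrf2-HET and at 8.88 and 8.86 in Nrf2-WT. The libraries of a genotype lay within 0.02 of each other, which after centring by pair only restates how close the pair differences were. The difference was 1.15 ± 0.06 (limma adjusted p = 7.96e-10), a 3.2-fold higher normalised count, with 1.13 in pair 1 and 1.16 in pair 2. Abcc1, which exports glutathione, its conjugates and leukotriene C4, lay at 12.47 and 12.46 in Nrf2-HET and at 11.83 and 11.84 in Nrf2-WT. It was higher by 0.63 ± 0.05 (limma adjusted p = 2.87e-08, 1.59-fold). Abcc4, an exporter of cyclic nucleotides and prostaglandins, whose windows hold the motif printed above, lay at 10.602 and 10.582 in Nrf2-HET and at 9.9799 and 9.9995 in Nrf2-WT. Its difference was 0.60 ± 0.05 (limma adjusted p = 3.22e-07, 1.67-fold), and both pairs gave nearly the same value, 0.62 and 0.58.

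The other tested exporters did not follow these 3. Abcc5, a further exporter of cyclic nucleotides, lay at 9.38 and 9.43 in Nrf2-HET and at 9.67 and 9.62 in Nrf2-WT, a fall of 0.24 ± 0.06 (limma adjusted p = 0.00563, 1.26-fold lower). Both Nrf2-HET libraries lay below both Nrf2-WT libraries. Abcg2, a pump of drugs, urate and porphyrins, lay at 8.07 and 8.20 in Nrf2-HET and at 8.42 and 8.29 in Nrf2-WT. It fell by 0.22 ± 0.08 (limma adjusted p = 0.0367, 1.44-fold lower), but its pairs differed the most of all tested members, at -0.35 in pair 1 and -0.08 in pair 2. The call was lost without the replicate block (limma adjusted p = 0.0906). A broken pair cannot be blocked, so fits on 3 libraries leave out the block as well. The call was also lost in those without replicate 1 of either genotype, where the difference was -0.15. In this centred table the value left out follows from those kept, so these fits are not separate checks. The adjusted p ranged from 0.00276 to 0.0906 over the alternatives of Abcg2 other than the fit without a filter. Abcc10, which also exports drugs and holds the motif in both of its windows, was not called (-0.10 ± 0.07, limma adjusted p = 0.267). Whether the motif takes part in any of these differences was not tested. Abcb1b was not called either, at 9.22 and 9.20 in Nrf2-HET and 9.12 and 9.14 in Nrf2-WT (0.08 ± 0.06, limma adjusted p = 0.355).

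Among the tested transporters of sterols and phospholipids 1 gene stood out. Of 21 genes 6 were tested, with 1 higher and 1 lower, against 21.5% and 18.9% of all tested genes. Abca12 lay at 11.460 and 11.479 in Nrf2-HET and at 10.003 and 9.984 in Nrf2-WT, with no overlap. The difference was 1.48 ± 0.05 (limma adjusted p = 6.46e-12), with 1.458 in pair 1 and 1.496 in pair 2, and the normalised count was 3.31-fold higher. In normalised counts it had 2571 and 2609 in Nrf2-HET and 789 and 776 in Nrf2-WT. Across the alternatives in which any gene was called, the difference stayed between 1.45 and 1.49. The other 4 tested members of subfamily A did not pass the test. Abca3, which loads surfactant lipid into lamellar bodies of the lung, differed by 0.12 ± 0.05 (limma adjusted p = 0.0754), and Abca7, a phospholipid transporter, by -0.13 ± 0.06 (adjusted p = 0.0854). Abca2 and Abca5, both lysosomal lipid transporters, overlapped between the groups, with differences of 0.07 ± 0.06 and 0.045 ± 0.072 (limma adjusted p = 0.354 and 0.657).

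Sterol efflux was represented by Abcg1, which delivers cholesterol to lipoprotein particles. It lay at 8.03 and 8.01 in Nrf2-HET and at 8.26 and 8.28 in Nrf2-WT, a fall of 0.26 ± 0.07 (limma adjusted p = 0.0102, 1.59-fold lower). Abca1, its partner in cholesterol efflux, was under the filter and had no test in this fit. It had 21.6 and 26.8 normalised counts in Nrf2-HET and 51.3 and 43.9 in Nrf2-WT, and the groups did not overlap. Without the filter and with constant genes left out, an alternative chosen after the data were seen, Abca1 was lower by 0.25 ± 0.08 (limma adjusted p = 0.0431). In the same fit Abca8b, which holds the motif near its start, was higher by 0.43 ± 0.08 (limma adjusted p = 0.0035). Its normalised counts were 51.25 and 43.97 in Nrf2-HET and 10.02 and 13.51 in Nrf2-WT. That is a 4.05-fold higher count, a larger ratio than that of Abca12 (3.31-fold), though at far lower counts.

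**Figure D3:**
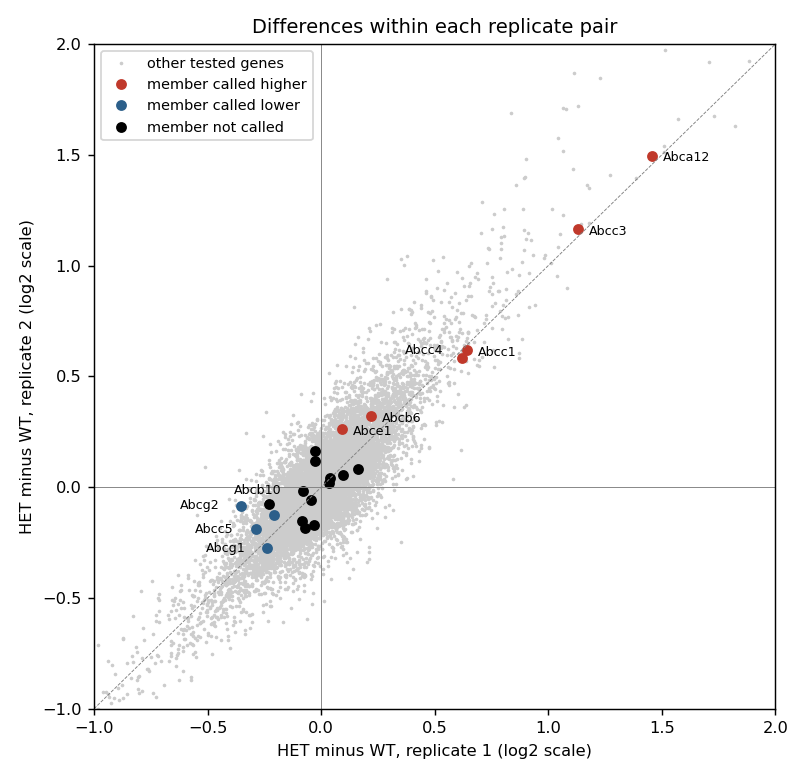
Difference Nrf2-HET minus Nrf2-WT within replicate 1 (x axis) and within replicate 2 (y axis), on the deposited log2 scale, for the tested genes (grey, 44 of them outside the axes) and 22 tested ABC transporters (coloured by call). Abca12, Abcc3, Abcc1 and Abcc4 lie close to the dashed line of equal differences, while Abcg2 (-0.35 and -0.08) and Abce1 (0.09 and 0.26) lie off it.

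Of 4 tested mitochondrial transporters 1 was called higher and 1 lower, against 21.5% and 18.9% of all tested genes. Abcb6, which moves porphyrins, lay at 8.85 and 8.90 in Nrf2-HET and at 8.63 and 8.58 in Nrf2-WT. It rose by 0.27 ± 0.07 (limma adjusted p = 0.00502, 1.41-fold), in both pairs. Abcb10, an inner membrane transporter known for its part in haem synthesis of red cell precursors, lay at 9.58 and 9.62 in Nrf2-HET and at 9.79 and 9.74 in Nrf2-WT. It fell by 0.17 ± 0.06 (limma adjusted p = 0.0332, 1.17-fold lower), and the call was lost in the fit without the filter and without constant genes (adjusted p = 0.0602, within 0.00671 to 0.0602 over its alternatives other than the fit without a filter). Abcb8 was not called, at -0.12 ± 0.06 (limma adjusted p = 0.118).

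In subfamily D, Abcd3, an abundant protein of the peroxisomal membrane, and Abcd4, which exports vitamin B12 from lysosomes, differed by -0.051 ± 0.052 and -0.15 ± 0.07 and were not called (limma adjusted p = 0.466 and 0.0811).

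Of the members that act on ribosomes rather than in membranes, 1 of 4 was called, against 40.4% of all tested genes. Abce1, which splits ribosomes after termination, lay at 12.21 and 12.29 in Nrf2-HET and at 12.11 and 12.03 in Nrf2-WT. It rose by 0.18 ± 0.05 (limma adjusted p = 0.0104, 1.14-fold), with 0.09 in pair 1 and 0.26 in pair 2, and lost its call in the fit without the block (adjusted p = 0.0538, within 0.000555 to 0.0538 over its alternatives other than the fit without a filter). Abcf1, Abcf2 and Abcf3, whose relatives in yeast act in translation, differed by between -0.048 and 0.040 and were not called (limma adjusted p = 0.465 to 0.684).

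By subfamily, the median difference was 0.068 in A, 0.077 in B, 0.60 in C, -0.15 in D, 0.18 in E, 0.027 in F and -0.24 in G. In pair 1 these medians were -0.029, -0.033, 0.62, -0.23, 0.092, 0.036 and -0.30, and in pair 2 they were 0.12, 0.056, 0.58, -0.074, 0.26, 0.019 and -0.18. The direction was the same in both pairs in subfamilies C to G and opposite in A and B. Each median rests on 1 to 5 tested genes, and no test was made of it.

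ABC proteins that carry other symbols fall outside the rule. Tap1 and Tap2, which pump peptides into the endoplasmic reticulum for class I molecules, rose by 0.25 ± 0.06 and 0.17 ± 0.06 (limma adjusted p = 0.0024 and 0.0346). Cftr, the chloride channel of subfamily C, was under the filter, at 7.61 and 7.64 in Nrf2-HET and 7.51 and 7.48 in Nrf2-WT.

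Genes that make the exported conjugates, or glutathione itself, were mostly higher in Nrf2-HET. This list of conjugate makers covers glutathione synthesis and glutathione, glucuronide and sulfate conjugates. Of its 20 tested genes 17 were higher and 0 lower by limma (0 lower also at an unadjusted p under 0.05), with a median of 0.78. Over all tested genes the shares were 21.5% higher and 18.9% lower. Gsta3, a glutathione transferase, was higher by 2.18 ± 0.05, Gclc, the catalytic subunit of glutathione synthesis, by 1.94 ± 0.05, Gsta1 by 1.51 ± 0.07 and Gclm, the modifier subunit, by 1.39 ± 0.05. The transferases belong to families of close copies, so single values are uncertain. Of 8 tested carriers of drugs and organic anions outside the ABC family 3 were higher and 1 lower (median 0.14), with Slc16a1, a lactate carrier, at 0.45 ± 0.05 and Slco2a1, a prostaglandin carrier, at -0.35 ± 0.08.

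Lists around the other members had smaller medians in size than the list of conjugate makers, and each held calls in both directions. Over all tested genes 21.5% were higher and 18.9% lower. LXR targets and sterol efflux partners, the surroundings of Abca1 and Abcg1, had 2 higher and 5 lower of 14 (median -0.057), with Scd2 at -0.90 ± 0.06 and Fasn at -0.79 ± 0.04, both enzymes of fatty acid synthesis. Peptide loading genes had 7 higher and 1 lower of 13 (median 0.17), with Tapbpl at 0.34 ± 0.06 and Tapbp at -0.24 ± 0.05. Iron-sulfur cluster and haem synthesis genes had 6 higher and 2 lower of 22 (median -0.0015), led by Slc25a37, the mitochondrial iron importer, at 0.73 ± 0.05. Peroxisome genes had 3 higher and 2 lower of 19 (median -0.031), and its largest called differences were close in size and opposite in direction, at 0.29 in Acsl1, an acyl-CoA synthetase, and at -0.29 in Pex26, a peroxisome assembly gene. Partners of Abce1 in ribosome recycling and initiation had 5 higher and 2 lower of 14 (median 0.089), with the initiation factor gene Eif1a at 0.51 ± 0.06. Of 14 tested receptors and factors known to control ABC genes 5 were higher and 2 lower (median 0.078), with Ppard, a lipid-sensing receptor, at 0.84 ± 0.07, Hif1a at 0.52 ± 0.06 and Keap1 at -0.18 ± 0.05.

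**Figure D4:**
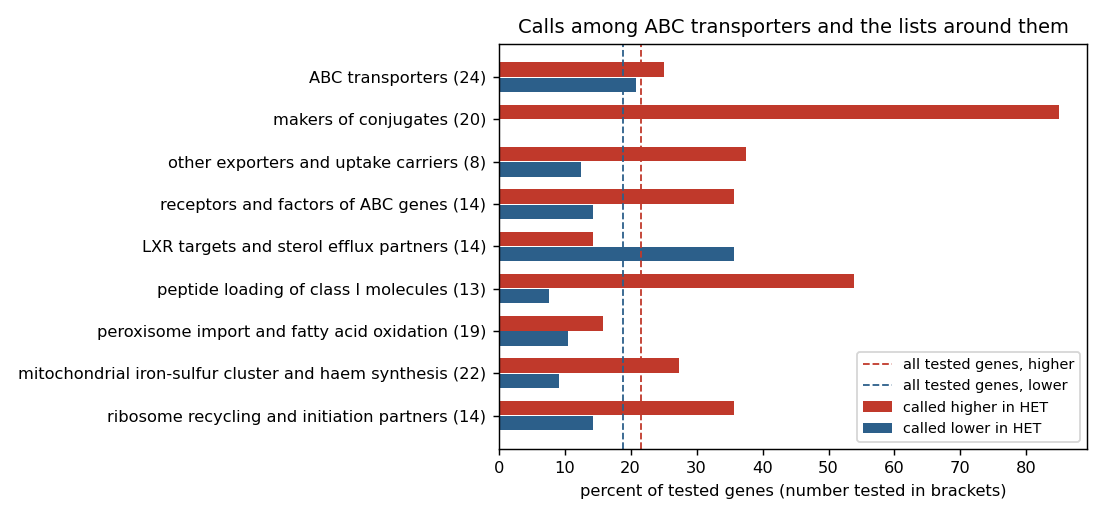
Percent of the tested genes called higher (red) and lower (blue) in Nrf2-HET among the ABC transporters and among lists of genes around them, with the number tested in brackets; dashed lines are all tested genes (21.5% higher, 18.9% lower). The ABC transporters lie near both lines (25% and 20.8%), while 17 of 20 tested makers of conjugates or of glutathione were higher.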

How the data were processed

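Per the labels, TRIzol RNA went into NEBNext Ultra libraries. The authors deposited variance-stabilised log2 values, 1 per gene and library. STAR 2.5.2b and Salmon 0.11.3 stand in the submitters' processing notes beside build mm9, DESeq2 and DESeq 1.22.2, with no role stated. Strand setting and annotation are not stated. The sums of the pairs agree within 1.31e-13 in every gene, so libraries of 1 number are paired in this table. The centring that causes this is recorded in no label, and blocking on the number matches it. limma 3.58.1 in R 4.3.3 was used (lmFit, eBayes with trend, two-sided, prior degrees of freedom 14.6, residual 1), and it was tested on simulated data. Depth comes from genes read in 1 library only, 239 to 320 per library, all whole multiples of 1 step (tolerance 0.001). Single normalised counts are approximate, because the values were centred. Tested members are named, with values per library where called; some are counted but not reported here; of each other list up to 4 called genes with the largest differences, and Cftr, Tap1, Tap2, Nfe2l2 and Keap1. Members under the filter are named with fewer values; those given for Abca1 and Abca8b were chosen after their values were seen. Members and lists were chosen with earlier results of these data known. Promoter windows are RefSeq's (GRCm38.p6). No window was used, among others, for Abca6, Abcb8, Abcc1, Abcc3, Abcc6, Abcc8, Abcd2, Abcd4, Abcg1 and Abcg4.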

Additional observations from a re-analysis of the deposited data

How the results depend on the processing

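Abca12, Abcc1, Abcc3, Abcc4 and Abcc5 were called in all 11 alternatives other than the fit without any filter, and Abcb6 and Abcg1 in all 10 that kept them. In limma's fit without a filter 0 genes and 0 members were called, in either direction (3942 genes and 8 members at an unadjusted p under 0.05), because genes with equal values in all libraries have no variance and the prior degrees of freedom drop to 0.636. With these constant genes left out, an alternative chosen after the data were seen, 3840 of 16324 genes were called. Among them were 11 of 41 members, 7 higher and 4 lower. They were not the same 11: Abcb10 and Abcg2 (limma adjusted p = 0.0602 and 0.0825) were lost, and Abca1 and Abca8b were gained. Without the replicate block 13 of the 24 tested members were called, beside 6004 of 10857 genes, against 11 members and 4388 genes with it. Abce1 and Abcg2 were lost, and Abca3, Abcb1b, Abcb8 and Abcd3 were gained. Fits that left out 1 library also left out the block, since a broken pair cannot be blocked. In this centred table the value left out follows from the values kept. For Abca12, leaving out replicate 1 of either genotype gave the same difference, 1.486, and leaving out replicate 2 of either gave 1.467. These fits are counted among the alternatives above but are not independent checks. The stricter filter left 3430 genes called, among them 7 members, 2 of these lower, as it removes low genes such as Abcg1 and Abcg2. Quantile normalization lost Abcg2 (limma adjusted p = 0.0597). The causes of these single losses and gains were not tested. Medians moved in subfamily B with the stricter filter (-0.021), in C without a filter (0.064), without constant genes (0.066) and after quantile normalization (0.57), in F after median centring (0.0093) and quantile normalization (0.0034), and in G without a filter (-0.055) and without constant genes (-0.11); the unfiltered ones add members near the floor, whose differences the scale compresses. The stricter filter left no member of subfamily G. The 17 members under the filter had no test in the fit; depth was not varied.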
